A study of Mus musculus with 24 samples.

Results

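Genes of MHC class I antigen presentation were followed in RNA of sorted macrophages from 2 tissues, the dura (the tough outer layer of the meninges) and the diaphragm (the breathing muscle). The 10 genes (H2-K1, H2-D1, H2-T23, B2m, Tap1, Tap2, Tapbp, Psmb8, Psmb9 and Nlrc5) were chosen by name, and all 10 were found among the 41388 genes counted. The mice were wild-type C57BL/6 animals aged 17 weeks at steady state, per the labels, although the series title speaks of T cells given to RAG-1 deficient mice. Per the labels, 9 dural and 15 diaphragm samples belong to macrophage subsets c1, c2 or c3. The count columns name the tissue but no subset. Dural columns carry a number (1, 3 or 4) and a mark (P6, P5 or P4), and diaphragm columns carry a number alone. The sources used here do not say what the marks stand for, so libraries are called by mark or number.

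Diaphragm columns of the same number were repeat runs and were summed, and numbers 4 and 5 held almost no counts and were left out. This left 9 dural libraries of 10457920 to 24077834 counts and 7 diaphragm libraries of 11053351 to 30132295 counts, in the sets 3/6/9, 2/8 and 1/7. The labels do not say that libraries came from separate animals, so p-values measure only the spread between libraries. Summed RNA of 10 macrophage markers was high in every library, at 22300 to 29100 CPM in dura and 17500 to 27100 CPM in diaphragm. CPM are counts per 1000000 of the scaled library total. Markers of other cells were present at lower levels. Summed RNA of 6 fibroblast markers was 238 to 378 CPM in dura P6, 563 to 753 CPM in P5 and 2010 to 3650 CPM in P4. In diaphragm it was 275 to 796 CPM in libraries 3/6/9 and 2/8 and 7350 to 15300 CPM in 1/7. The libraries are of bulk RNA, in which fewer cells of a type and less RNA per cell cannot be told apart.

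Class I molecules display peptides from inside the cell to CD8 T cells and to receptors of natural killer cells. The proteasome cuts the peptides, the TAP transporter carries them into the endoplasmic reticulum, and tapasin helps load them onto a heavy chain paired with beta-2 microglobulin. The genes are induced by interferons and by the transactivator NLRC5, which acts at a promoter module of X and Y boxes together with RFX and other factors that also serve class II promoters.

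Of the 10 genes, 8 lie on chromosome 17 of GRCm38 in the mouse MHC region. The classical heavy chain genes are H2-K1 (ENSMUSG00000061232, 33996017 to 34000347, minus strand) and H2-D1 (ENSMUSG00000073411, 35262730 to 35267499, plus strand). H2-T23 (ENSMUSG00000067212, 36029773 to 36032855, minus strand) encodes the nonclassical heavy chain Qa-1. B2m (ENSMUSG00000060802), the light chain gene, lies on chromosome 2 at 122147686 to 122153083 on the plus strand. Tap1 (ENSMUSG00000037321, 34187553 to 34197225, plus strand) and Tap2 (ENSMUSG00000024339, 34203527 to 34216321, plus strand) encode the subunits of the peptide transporter. Tapbp (ENSMUSG00000024308, 33915899 to 33929292, plus strand) encodes tapasin. Psmb8 (ENSMUSG00000024338, 34197721 to 34201454, plus strand) and Psmb9 (ENSMUSG00000096727, 34181987 to 34187764, minus strand) encode inducible catalytic subunits of the immunoproteasome. Nlrc5 (ENSMUSG00000074151) lies on chromosome 8 at 94434356 to 94527272 on the plus strand.

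Promoter windows are shown for 5 members that were higher in dura P6 than in P4, namely the heavy chains, their light chain and the transporter subunit Tap1. Each runs from 250 bases before to 50 after the annotated start, 5′ to 3′ in the direction of the gene, from RefSeq on GRCm38.p6. Capitals mark matches, on either strand, to GGGGNNNCCCC (a kappaB site), GAAANNGAAA and GAANNGAAAC (forms of the interferon-stimulated response element), TGACG (a CRE-like X2 core) and CCAAT (a Y box core). The windows are chr17:34000298-34000597, minus strand (H2-K1, the first of 2 starts listed), chr17:35262844-35263143, plus strand (H2-D1), chr17:36032652-36032951, minus strand (H2-T23), chr2:122147437-122147736, plus strand (B2m), and chr17:34187306-34187605, plus strand (Tap1).
H2-K1: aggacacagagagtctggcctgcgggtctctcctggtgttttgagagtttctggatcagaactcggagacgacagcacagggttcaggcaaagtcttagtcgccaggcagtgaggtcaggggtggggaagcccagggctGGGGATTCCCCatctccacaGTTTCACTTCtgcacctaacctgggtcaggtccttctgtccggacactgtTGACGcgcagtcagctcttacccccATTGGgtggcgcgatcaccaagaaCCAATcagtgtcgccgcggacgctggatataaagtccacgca
H2-D1: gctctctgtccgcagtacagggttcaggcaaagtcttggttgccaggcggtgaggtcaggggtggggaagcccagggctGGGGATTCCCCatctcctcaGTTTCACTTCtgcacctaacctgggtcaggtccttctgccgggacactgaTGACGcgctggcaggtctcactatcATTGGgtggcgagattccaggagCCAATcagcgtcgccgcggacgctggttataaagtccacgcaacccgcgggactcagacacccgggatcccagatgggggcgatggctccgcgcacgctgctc
H2-T23: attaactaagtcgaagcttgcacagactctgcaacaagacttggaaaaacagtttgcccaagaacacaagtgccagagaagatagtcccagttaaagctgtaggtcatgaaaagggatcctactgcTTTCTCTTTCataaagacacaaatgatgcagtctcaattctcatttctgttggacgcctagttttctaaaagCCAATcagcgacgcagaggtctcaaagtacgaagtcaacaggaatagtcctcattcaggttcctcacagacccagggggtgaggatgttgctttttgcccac
B2m: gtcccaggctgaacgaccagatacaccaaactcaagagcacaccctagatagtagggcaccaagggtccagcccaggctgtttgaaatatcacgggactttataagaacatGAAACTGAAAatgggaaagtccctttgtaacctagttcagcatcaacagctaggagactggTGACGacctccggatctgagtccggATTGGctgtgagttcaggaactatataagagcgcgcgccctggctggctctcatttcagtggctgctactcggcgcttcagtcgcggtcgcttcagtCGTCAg
Tap1: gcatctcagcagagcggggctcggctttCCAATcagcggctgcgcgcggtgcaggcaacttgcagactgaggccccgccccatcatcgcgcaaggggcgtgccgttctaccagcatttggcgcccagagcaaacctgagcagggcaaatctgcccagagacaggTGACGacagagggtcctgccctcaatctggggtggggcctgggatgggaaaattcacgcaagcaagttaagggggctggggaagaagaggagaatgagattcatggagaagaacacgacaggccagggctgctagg

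A window was listed for 8 members, and Tap2 and Nlrc5 were not among them. The motifs were chosen after these sequences had been read, and a match is a description of letters only. No match of one motif overlapped a match of another in these windows. GGGGNNNCCCC was present in 2 of the 8 windows, those of H2-K1 and H2-D1, and in 1.01% of 32851 promoter windows of the same length. It began at position -111 in H2-K1 and at -171 in H2-D1, counted from the annotated start. The GAANNGAAAC form was also in H2-K1 and H2-D1 (1.73% of all windows), at -91 and -151. The GAAANNGAAA form was in H2-T23 and B2m (3.44% of all windows). TGACG was in 5 of 8 windows and in 20.8% of all windows, and CCAAT in 7 of 8 and 37.4%. The windows of Tap1 and Psmb9, which are read from opposite strands, share 275 bases. Their TGACG and CCAAT matches are the same sites, so these counts include each site under both genes.

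**Figure D1:**
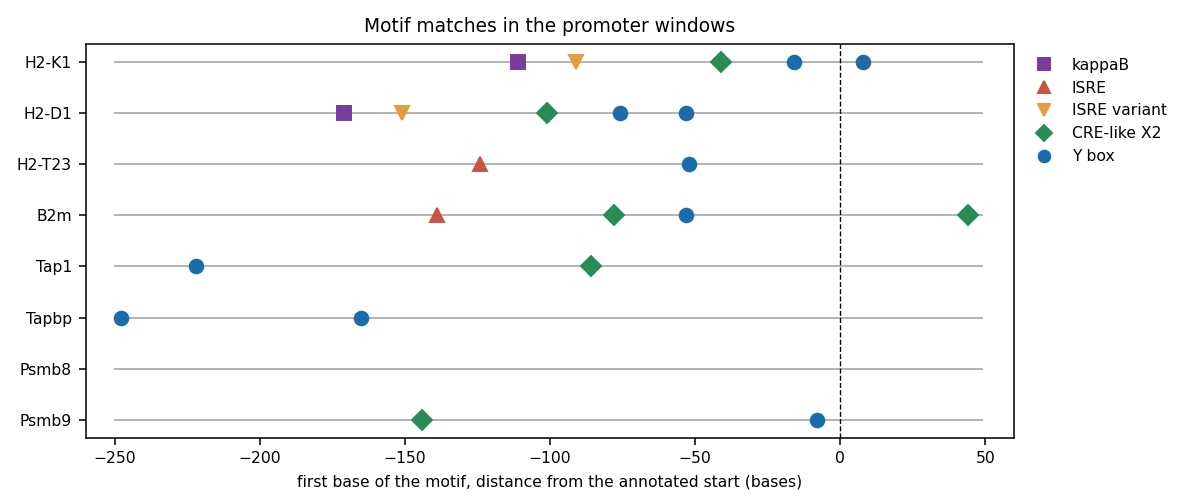
Motif matches in the promoter windows of the 8 members listed. The horizontal axis is the distance in bases of a match's first base from the annotated start (dashed line), and each symbol is 1 match. H2-K1 and H2-D1 carry the same 2 upstream motifs (kappaB and an interferon-response form) in the same order, and the window of Psmb8 holds none of the 5.

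Levels between genes were compared as CPM per kilobase of exonic sequence. This length counts the exonic bases of all annotated transcripts of a gene, for example 3381 for Psmb8 and 860 for B2m. It can exceed the length of the transcripts present, so the order between genes also depends on the annotation. B2m stood highest, at 3790 ± 473 CPM per kilobase in dura (SD, n = 9) and 3710 ± 610 in diaphragm (n = 7). H2-D1 followed at 1020 ± 166 in dura and 1380 ± 226 in diaphragm, and H2-K1 at 698 ± 102 in dura and 783 ± 179 in diaphragm. Nlrc5 was lowest, at 3.13 ± 0.657 CPM per kilobase in dura and 3.21 ± 1.15 in diaphragm. Between them, in falling order of the dural mean, came Tapbp, H2-T23, Psmb8, Tap1, Psmb9 and Tap2. This order between neighbours held in 16 of 16 libraries except at 3 places. Tapbp exceeded H2-T23 in 13 libraries, Tap1 exceeded Psmb9 in 11 and Psmb9 exceeded Tap2 in 11, so the order of these neighbours differed between libraries. In diaphragm the mean of Tap2 was above that of Psmb9 (30.6 and 29.7 CPM per kilobase). Together the 10 genes took 1.02% to 1.11% of counts in dura P6, 0.959% to 1.02% in P5 and 0.837% to 0.882% in P4. In diaphragm they took 0.948% to 1.05% in 3/6/9, 1.17% to 1.19% in 2/8 and 0.83% to 0.878% in 1/7.

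**Figure D2:**
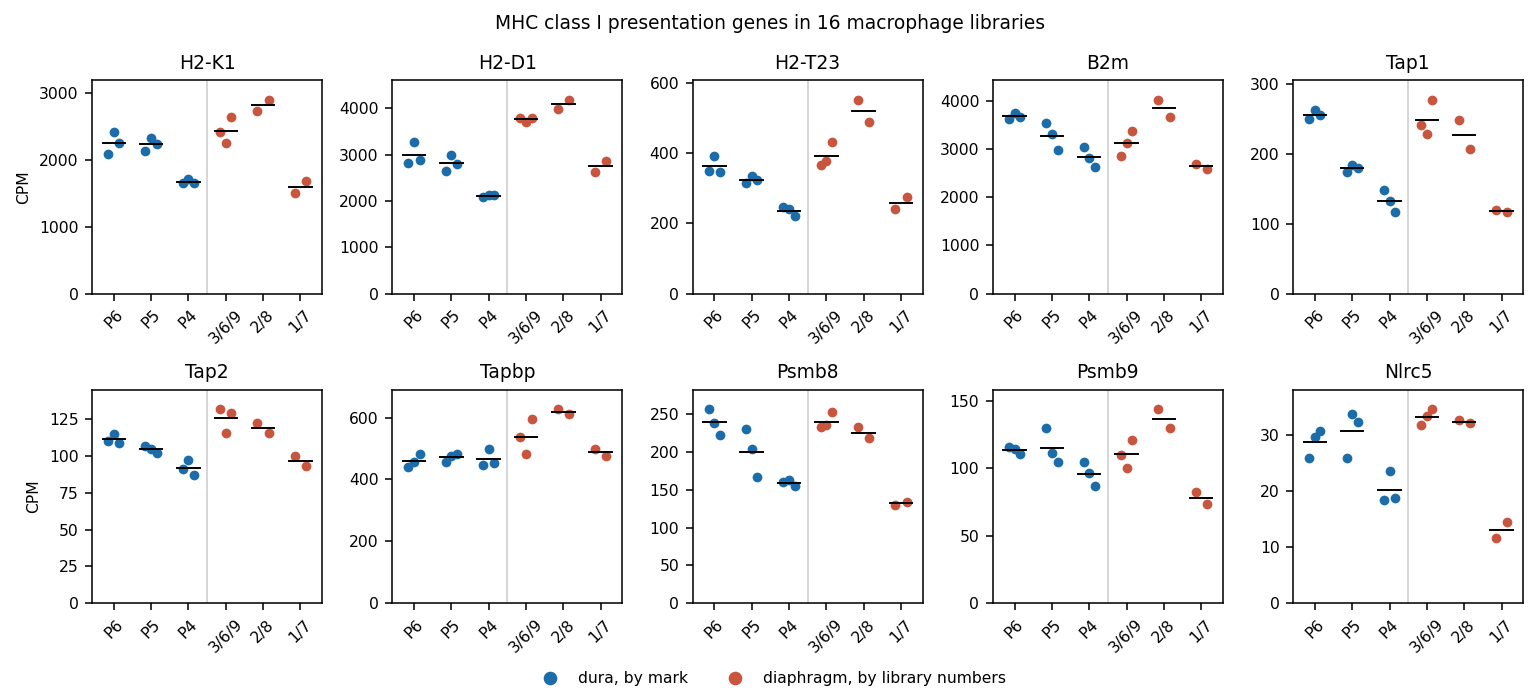
CPM of the 10 genes in each of 16 libraries. Each point is 1 library and each black line the mean of its set, with 3 dural sets by mark on the left and 3 diaphragm sets by library number on the right of every panel. Within dura most genes have their lowest mean in P4, and within diaphragm all 10 have it in 1/7, for example Tap1 at 117 to 149 CPM in P4 and 117 to 119 CPM in 1/7.

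Dura P6 libraries had more class I RNA than dura P4 libraries. The heavy chains, B2m, both TAP subunits, Psmb8 and Nlrc5 rose, with fold changes from 1.22 for Tap2 to 1.94 for Tap1. Tapbp and Psmb9 did not pass the test. By edgeR's quasi-likelihood test with Benjamini-Hochberg adjustment, 8 of the 10 genes were higher at an adjusted p under 0.05 and 0 were lower. The count of lower members was also 0 in each dural comparison at an unadjusted p under 0.05, with DESeq2 and with limma-voom. Over all 13239 genes tested, 16% were higher and 17.3% lower. Every P6 library lay above every P4 library for 9 of the 10 genes, as it did for 22.7% of all genes. The median log2 fold change was 0.47 over the 10 genes and -0.004 over all genes.

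H2-K1 had 2091, 2414 and 2249 CPM in P6 libraries 1, 3 and 4, against 1651, 1714 and 1650.3 CPM in P4 libraries 1, 3 and 4. H2-D1 had 2814, 3274 and 2887 CPM in P6, against 2081, 2136 and 2140.0 CPM in P4. H2-T23 had 351, 392 and 345 CPM in P6, against 248, 241 and 220 CPM in P4. For all 3 heavy chains every P6 library lay above every P4 library. The log2 fold change was 0.44 ± 0.068 (SE) for H2-K1 (adjusted p = 0.000365, edgeR), 0.51 ± 0.071 for H2-D1 (adjusted p = 0.000179) and 0.63 ± 0.085 for H2-T23 (adjusted p = 0.000146). B2m, the light chain of all of them, had 3628, 3746 and 3664 CPM in P6, against 3048, 2813 and 2634 CPM in P4. Its groups did not overlap either, and its log2 fold change was 0.39 ± 0.069 (adjusted p = 0.0011, edgeR).

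The TAP subunits differed in size of change. Tap1 had 250, 263 and 256 CPM in P6, against 149, 133 and 117 CPM in P4. Its log2 fold change of 0.95 ± 0.095 (adjusted p = 1.3e-05, edgeR) was the largest of the 10. Tap2 had 110.0, 115 and 109 CPM in P6, against 91.2, 97.5 and 87.3 CPM in P4. Its groups did not overlap, with a smaller log2 fold change of 0.28 ± 0.084 (adjusted p = 0.0212). The difference between the subunits was not tested. Tapbp had 441, 458 and 484 CPM in P6, against 448, 499.5 and 453 CPM in P4. Its groups overlapped and its log2 fold change was -0.011 ± 0.078 (adjusted p = 0.926). Of the exonic bases of Tapbp 29% overlap other genes, mainly Gm19412 on the other strand, and the unstranded kit cannot tell these apart. The same holds for 18.5% of the exonic bases of Tap2 (Gm15821 and Gm20496) and 14.7% of those of Psmb8 (Gm20496).

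The immunoproteasome subunits stood as follows. Psmb8 had 257, 239 and 223 CPM in P6, against 160.02, 163 and 155 CPM in P4, with no overlap and a log2 fold change of 0.59 ± 0.112 (adjusted p = 0.00154, edgeR). Psmb9 had 115, 114 and 111 CPM in P6, against 105, 96.3 and 87.0 CPM in P4. Its P6 libraries all lay above its P4 libraries, but the log2 fold change of 0.25 ± 0.103 did not pass (adjusted p = 0.0871). Tap1 and Psmb9 overlap by 212 exonic bases on opposite strands, where their reads cannot be told apart. Nlrc5, the transactivator, had 25.9, 29.7 and 30.7 CPM in P6, against 18.4, 23.5 and 18.8 CPM in P4. Its groups did not overlap, and its log2 fold change was 0.51 ± 0.157 (adjusted p = 0.0244).

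Between 6 and 9 genes passed when 1 of the 9 dural libraries was left out. In one fit of all 16 libraries, with the diaphragm as 1 group, 1 gene, Tap1, passed. Differences among the diaphragm libraries counted as spread in that fit, and it called 1292 of all genes, against 4403. The call of Nlrc5 was lost without P4 library 1 or 4 or P6 library 3 or 4 (adjusted p 0.0732 to 0.0832, edgeR), and that of Tap2 without P4 library 4 or P6 library 3 (0.0815 and 0.0807). Scaling to library totals alone moved the median of all genes to -0.135 and the calls to 1598 higher and 2994 lower, against 2118 and 2285 with TMM factors. Under it 6 members remained higher, with Tap2 and Nlrc5 not passing. Fibroblast markers moved with the mark, 6 of 6 being lower in P6 than in P4 at the sums given above, and 6 of 9 dendritic cell markers were higher and 2 lower, with sums of 168 to 201 CPM in P6 and 127 to 141 CPM in P4. Summed classical monocyte markers were 1550 to 1710 CPM in P6 and 109 to 495 CPM in P4, with 2 of 9 higher and 1 lower. Macrophage markers had 3 of 10 higher and 4 lower, and endothelial markers 2 of 6 lower. The T cell list summed to 31.6 to 46.2 CPM in P6 and 274 to 308 CPM in P4. Nearly all of this was Cd4, the 1 of its 9 genes that was tested, with a log2 fold change of -3.00 ± 0.158 (adjusted p = 6.7e-08, edgeR). The other 8, with Cd3e, Cd3g, Trac and Lck among them, reached at most 1.21 CPM in any dural library. The part of these markers in the result was not tested. Natural killer cell markers summed to at most 0.778 CPM in any dural library.

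**Figure D3:**
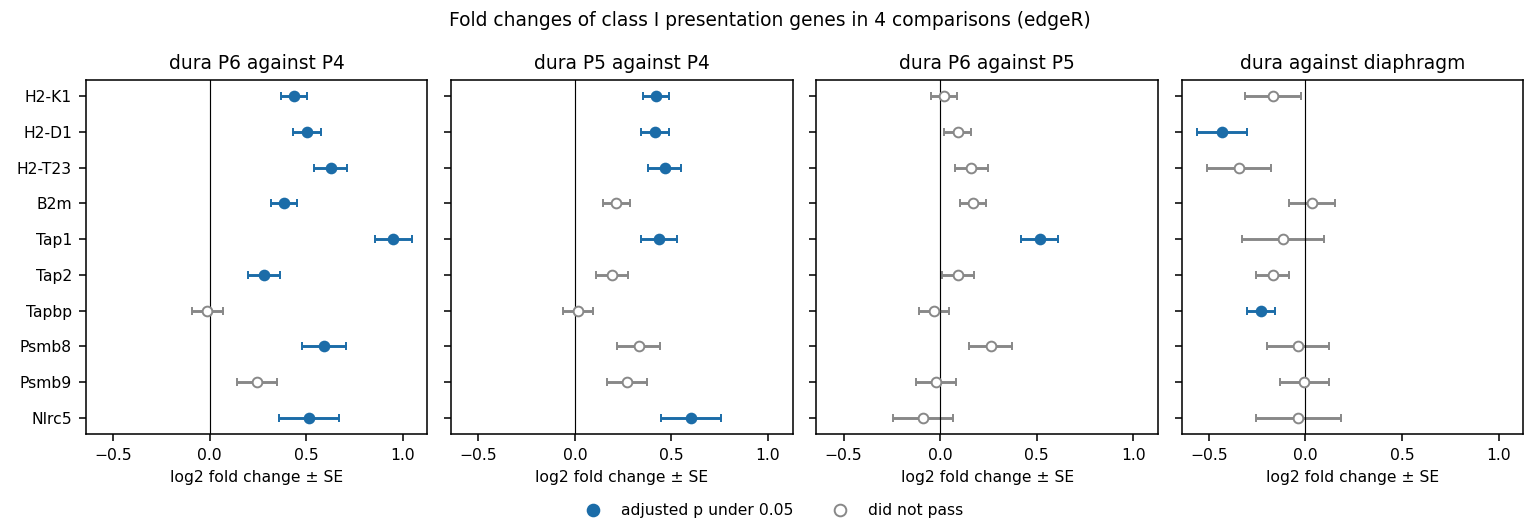
Log2 fold changes of the 10 genes with their standard errors in 4 comparisons, from edgeR. Filled points passed an adjusted p of 0.05. The P6 against P4 panel holds 8 filled points, all to the right of 0, the P5 against P4 panel 5, the P6 against P5 panel 1 (Tap1), and the dura against diaphragm panel 2, both to the left of 0.

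P5 against P4 shares the P4 libraries with the comparison above. Here the 3 heavy chains, Tap1 and Nlrc5 rose in P5, and no member fell. That is 5 of 10 genes higher, where 3.09% of all genes were higher and 4.26% lower. The median log2 fold change was 0.37 over the members and -0.007 over all genes. H2-K1 had 2127, 2329 and 2227 CPM in P5, with a log2 fold change over P4 of 0.42 ± 0.067 (adjusted p = 0.00266, edgeR). H2-D1 had 2645, 3002 and 2801 CPM in P5 and a log2 fold change of 0.41 ± 0.071 (adjusted p = 0.0037). H2-T23 had 314, 336 and 324 CPM in P5 and a log2 fold change of 0.46 ± 0.085 (adjusted p = 0.00583). All 3 heavy chains were higher in every P5 library than in any P4 library, as were 7 of the 10 members and 11.2% of all genes.

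Tap1 had 174, 184 and 180.4 CPM in P5, and its log2 fold change over P4 was 0.44 ± 0.095 (adjusted p = 0.0156, edgeR). Nlrc5 had 25.9, 33.8 and 32.2 CPM in P5 and a log2 fold change of 0.60 ± 0.156 (adjusted p = 0.0372). Both were without overlap. Values that did not pass were 0.21 ± 0.069 for B2m, 0.33 ± 0.112 for Psmb8, 0.27 ± 0.103 for Psmb9, 0.19 ± 0.083 for Tap2 and 0.018 ± 0.078 for Tapbp. B2m had 3527, 3317 and 2982 CPM in P5, the lowest of which lay under the highest P4 library. The count of 5 was 3 with library totals alone (232 genes higher and 808 lower, against 409 and 564). It was also 3 without P4 library 4 or P5 library 3. With all 16 libraries in one fit it was 0, where 3 of all genes were called. With the dural number as a block it was 8, with B2m, Psmb8 and Psmb9 in addition (adjusted p = 0.0153, 0.0288 and 0.0427, edgeR). The labels do not say what the numbers share. H2-K1, H2-D1 and H2-T23 passed without any single dural library, whereas Tap1 and Nlrc5 did not in 3 and 5 of the 9 cases. These were P4 library 3 or 4 or P5 library 3 for Tap1 (adjusted p 0.0524 to 0.0635, edgeR), and P4 library 1 or 4, P5 library 3 or 4 or P6 library 3 for Nlrc5 (0.0537 to 0.162). Markers of other cells also moved between P5 and P4. Fibroblast markers were lower in 6 of 6 (median log2 fold change -2.16), and 4 of 9 dendritic cell markers were higher and 0 lower. Classical monocyte markers had 2 higher and 2 lower, among them Ccr2 at 2.13 ± 0.302 and Plac8 at -3.06 ± 0.635, and summed to 273 to 332 CPM in P5 and 109 to 495 CPM in P4. Macrophage markers had 1 of 10 higher. The part of these markers was not tested.

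P6 against P5 called 1 member, Tap1, where 8.38% of all genes were higher and 8.98% lower. Tap1 stood at 250, 263 and 256 CPM in P6, against 174, 184 and 180.4 CPM in P5, so that the libraries did not overlap. Its log2 fold change was 0.52 ± 0.095 (adjusted p = 0.00278, edgeR), and it passed without any single dural library but not with all 16 libraries in one fit (adjusted p = 0.472). Tap1 was the one member called in all 3 dural comparisons, which share their libraries and are not independent of each other. The heavy chains did not pass, with log2 fold changes of 0.018 ± 0.067 for H2-K1, 0.090 ± 0.070 for H2-D1 and 0.16 ± 0.085 for H2-T23. Psmb8 (0.26 ± 0.112), B2m (0.17 ± 0.069) and Nlrc5 (-0.088 ± 0.155) did not pass either. Every P6 library lay above every P5 library for 4 members (H2-T23, B2m, Tap1 and Tap2), as for 18.3% of all genes. Without P5 library 1, 3 members passed, Psmb8 and B2m in addition to Tap1. Among markers, 4 of 9 for classical monocytes were higher, 4 of 9 for dendritic cells were higher and 1 lower, 4 of 6 for fibroblasts were lower, 5 of 10 for macrophages were lower, and Cd4 was lower (-2.50 ± 0.155). Their part was not tested.

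Dura and diaphragm overlapped at all 10 genes, where 2.47% of all genes lay higher in every dural library and 4.42% lower. H2-D1 and Tapbp fell in dura relative to diaphragm, and no member rose, which is 2 of 10 genes where 15.3% of 13136 genes were lower and 11.2% higher. H2-D1 ranged from 2081 to 3274 CPM in dura (median 2801, n = 9) and from 2630 to 4188 CPM in diaphragm (median 3785, n = 7). Its log2 fold change was -0.43 ± 0.129 (adjusted p = 0.0202, edgeR). Tapbp ranged from 441 to 499.5 CPM in dura (median 458) and from 476 to 628 CPM in diaphragm (median 536), with a log2 fold change of -0.23 ± 0.075 (adjusted p = 0.0319). Both tissues reached into each other's range at these genes.

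The other 8 did not pass. H2-T23 ranged from 220 to 392 CPM in dura (median 324) and from 241 to 553 CPM in diaphragm (median 378), with a log2 fold change of -0.34 ± 0.167 (adjusted p = 0.142, edgeR). H2-K1 averaged 2050 ± 300.2 CPM in dura and 2302 ± 525.9 CPM in diaphragm, with a log2 fold change of -0.17 ± 0.144. Tap2 stood at -0.17 ± 0.084. B2m, Tap1, Psmb8, Psmb9 and Nlrc5 had log2 fold changes between -0.12 and 0.034. The lower call of H2-D1 was lost without P4, P5 or diaphragm 3/6/9 (adjusted p = 0.121, 0.0564 and 0.171), with no filter on low counts (0.0506), with near-empty columns kept (0.606) and with dural libraries summed per number (0.174), and that of Tapbp without any of P6, P5, P4 or 3/6/9 (0.0941 to 0.117). Tapbp also did not pass without any 1 of 7 libraries, P4 libraries 1 and 4, P5 library 1, P6 library 4 and diaphragm libraries 2, 8 and 9 (0.0509 to 0.0717). Without diaphragm 1/7, 5 members were lower, H2-K1, H2-T23 and Tap2 in addition. The calls over all genes were 1465 higher and 2007 lower with TMM factors, 2008 and 1688 with upper-quartile factors, and 2369 and 1493 with library totals, which put the median of all genes at 0.13. Tapbp was also not called with either of the last 2 scalings (adjusted p = 0.129 and 0.402). Summed skeletal muscle markers were 0.623 to 10.8 CPM in dura and 120 to 273 CPM in diaphragm, and 4 of 5 tested were lower. Of the other markers, 6 of 9 for classical monocytes were lower (median log2 fold change -3.00), 3 of 9 for dendritic cells, 3 of 6 for endothelium and 2 of 6 for fibroblasts, whereas 5 of 10 for macrophages were higher. Of 5 tested liver markers 4 were lower and Ttr was higher, with Alb at 0.0 to 0.26 CPM in dura and 182 to 535 CPM in diaphragm. Classical monocyte markers summed to 109 to 1710 CPM in dura and 546 to 3190 CPM in diaphragm. The part of all these markers was not tested. Effects of tissue and of a batch specific to 1 tissue cannot be told apart.

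Within the diaphragm the libraries were described without a test, because the labels do not say what the numbers share. The sets 3/6/9, 2/8 and 1/7 were taken over with earlier results of these data known, so a gap between them is no independent result. The labels do not show whether they are groups of the study. Libraries 1 and 7 were low for nearly every member. In 2/8 all 10 members lay above 1/7, where 27.6% of all genes did, and in 3/6/9 9 members did, where 24.1% of all genes did, with Tapbp overlapping. Nlrc5 had 31.7, 33.4 and 34.6 CPM in libraries 3, 6 and 9, 32.7 and 32.2 CPM in 2 and 8, and 11.7 and 14.5 CPM in 1 and 7. Tap1 had 241, 229 and 278 CPM in 3, 6 and 9, 248 and 207 CPM in 2 and 8, and 119 and 117 CPM in 1 and 7. These 2 genes had the largest log2 ratios of 3/6/9 over 1/7, at 1.34 for Nlrc5 and 1.08 for Tap1.

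The heavy chains followed another order. H2-K1 had 2413, 2251 and 2632 CPM in 3, 6 and 9, 2722 and 2896 CPM in 2 and 8, and 1508 and 1689 CPM in 1 and 7. H2-T23 had 367, 378 and 431 CPM in 3, 6 and 9, 553 and 488 CPM in 2 and 8, and 241 and 275 CPM in 1 and 7. In 3/6/9, 6 members (H2-K1, H2-D1, H2-T23, B2m, Tapbp and Psmb9) lay below 2/8, where 22% of all genes did, and 4 overlapped. Fibroblast markers were highest in 1/7 and dendritic cell markers in 3/6/9 (738 to 967 CPM, against 193 to 229 CPM in 2/8 and 162 to 173 CPM in 1/7). Classical monocyte markers summed to 2720 to 3190 CPM in 3/6/9, 546 to 639 CPM in 2/8 and 1200 to 1950 CPM in 1/7. Most of the sum in 1/7 was Fn1, with means of 1612, 270.1 and 1364 CPM in 3/6/9, 2/8 and 1/7. Ccr2 had means of 960.1, 128.6 and 21.63 CPM, and Plac8 and Clec4e also had their lowest means in 1/7, so the list did not share 1 order. Endothelial markers summed to 25.5 to 128 CPM in 3/6/9, 452 to 505 CPM in 2/8 and 933 to 979 CPM in 1/7. Most of the sum in 2/8 was Cdh5, with means of 14.45, 376.9 and 220 CPM in 3/6/9, 2/8 and 1/7. Pecam1, Kdr, Tek, Cldn5 and Egfl7 were all lower in 2/8 than in 1/7, for example Kdr at means of 13.71 and 171.3 CPM. Macrophage markers summed to 17500 to 19000, 26600 to 27100 and 18900 to 20500 CPM in 3/6/9, 2/8 and 1/7. The part of these markers was not tested.

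Other genes of the pathway were taken from lists, and counts are for genes called by edgeR. Over all genes tested, 16% were higher and 17.3% lower in P6 against P4, and 3.09% and 4.26% in P5 against P4. These shares were 8.38% and 8.98% in P6 against P5, and 11.2% and 15.3% in dura against diaphragm. Among 11 tested class I and class I-like genes beyond the members, 5 were higher and 2 lower in P6 than in P4 (median log2 fold change 0.30). H2-M2, a nonclassical heavy chain, had 19.0, 32.5 and 19.2 CPM in P6, against 0.0, 0.69 and 0.0 CPM in P4 (adjusted p = 2.2e-05). H2-Q7, which encodes the Qa-2 antigen and has near-identical neighbours that make its count uncertain, rose by a log2 fold change of 0.90 ± 0.15. Fcgrt, the neonatal Fc receptor that pairs with beta-2 microglobulin without presenting peptide, fell to 508, 479 and 429.7 CPM in P6, against 1164, 1196 and 1164 CPM in P4 (log2 fold change -1.31 ± 0.072, adjusted p = 9.37e-08). Of these, 3 were higher and 2 lower in P5 against P4, and in P6 against P5 1 was called, Fcgrt, which was lower. In dura against diaphragm 4 of 12 tested were lower, led by H2-Q10 (-4.51 ± 0.795), H2-Q4 (-0.46 ± 0.091) and H2-Q6 (-0.91 ± 0.227), whose counts are uncertain for the same reason. H2-Q10 was low in both tissues, at a mean of 0.23 CPM in dura and 5.23 CPM in diaphragm, and which cells its RNA came from was not tested.

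Of 21 other proteasome genes tested, 11 were higher and 0 lower in P6 than in P4 (median log2 fold change 0.37), 6 higher in P6 than in P5, and 0 in either direction in P5 against P4 (1 higher at an unadjusted p under 0.05, 0 with DESeq2 or limma-voom). In that comparison Psmb4 and Pomp, the most abundant, stood at 0.15 ± 0.114 and 0.078 ± 0.107. The leading ones were Psme1, a subunit of the interferon-inducible proteasome activator (0.55 ± 0.096, adjusted p = 0.000892), the activator subunit Psme3 (0.49 ± 0.091) and the core subunit Psma6 (0.49 ± 0.115). In dura against diaphragm 7 of the 21 were lower, where 15.3% of all genes were. Among 11 further genes of peptide loading and trimming, 4 were higher in P6 than in P4, led by the chaperone gene Calr (0.38 ± 0.067), the aminopeptidase gene Lnpep (1.00 ± 0.218) and the chaperone gene Hspa5 (0.36 ± 0.088). In P5 against P4 0 were called by edgeR (3 at an unadjusted p under 0.05, 1 with DESeq2, 0 with limma-voom), with Hspa5 at 0.21 ± 0.088 and Calr at 0.16 ± 0.067. In P6 against P5 1 was called, Calr, which was higher, and 5 were lower in dura than in diaphragm.

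Interferon-related genes did not move in one direction. Of 19 genes of the interferon gamma list, 7 were higher and 6 lower in P6 than in P4, where 16% and 17.3% of all genes were. Ciita, the class II transactivator, rose by 3.32 ± 0.184, whereas the GTPase genes Iigp1 and Gbp7 fell by 1.58 and 1.06 on the log2 scale (adjusted p = 1.31e-07 and 2.77e-06). The list had 4 higher in P5 than in P4, led by Ciita and the chemokine genes Cxcl9 (2.22 ± 0.169) and Cxcl10 (0.89 ± 0.131). In P6 against P5, 1 was higher and 6 lower. Of 17 type I interferon-stimulated genes, 0 were higher (3 at an unadjusted p under 0.05, 1 with DESeq2, 1 with limma-voom) and 4 lower in P6 than in P4, led by Bst2 (-0.51 ± 0.095), Oasl2 (-0.42 ± 0.094) and Ifit3 (-0.92 ± 0.217). In P5 against P4 0 of the 17 were called by edgeR, DESeq2 or limma-voom (1 higher and 3 lower at an unadjusted p under 0.05), with Bst2 at -0.26 ± 0.095 and Oasl2 at -0.23 ± 0.093. In P6 against P5 1 was higher, Oas1a. In dura against diaphragm the interferon gamma list had 3 higher and 5 lower of 18 tested, and the type I list 4 higher and 2 lower.

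Among 14 transcription factors of class I genes, Irf2 and Nfkb1 were higher and Irf1 lower in P6 than in P4. The list did not exceed the share of all genes, of which 16% were higher and 17.3% lower. Irf1, an interferon-induced activator, had 505, 470.45 and 592 CPM in P6, 899, 820.1 and 954 CPM in P5 and 585, 654 and 748 CPM in P4. Its P5 libraries lay above all others. The log2 fold change was -0.34 ± 0.112 for P6 against P4 (adjusted p = 0.0369, edgeR), 0.43 ± 0.112 for P5 against P4 (adjusted p = 0.0367) and -0.77 ± 0.112 for P6 against P5 (adjusted p = 0.00059). Irf8 was the other factor higher in P5 than in P4, and none but Irf1 was called in P6 against P5. In dura against diaphragm 3 factors were higher, Irf1 and Irf8 among them, and 2 lower, with Rela at -0.76 ± 0.127.

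Every class II gene had a larger log2 fold change in P6 against P4 than any class I member. All 7 class II genes were higher in P6 than in P4 with a median log2 fold change of 3.67, against 0.47 for the class I members. Summed class II RNA took 8.13% to 8.43% of counts in P6, 5.04% to 5.44% in P5 and 0.599% to 0.692% in P4. In P5 against P4 and in P6 against P5, 6 of the 7 were higher, and in dura against diaphragm 0 were called by edgeR (1 lower at an unadjusted p under 0.05, 1 lower with DESeq2, 0 with limma-voom), with Cd74 at -0.24 ± 0.738 and H2-Eb1 at -0.11 ± 0.857. All 4 tested genes of a list of myeloid receptors, for class I or related in family, were higher in P6 than in P4. Of these, Lilra6 was low, at a mean of 0.25 CPM in P4 and 5.0 CPM in P6. Klra2, a Ly49-family receptor gene, had 108, 131 and 121 CPM in P6, against 10.1, 11.02 and 7.69 CPM in P4 (3.66 ± 0.192, adjusted p = 6.66e-08). Pirb, an inhibitory receptor gene, rose by 0.97 ± 0.124 and Lilra5 by 0.60 ± 0.090. The receptors had 3 of 4 higher in P5 against P4, in P6 against P5 2, and in dura against diaphragm 2 were lower. Klra and Pir receptor genes have near-identical relatives, so their counts are uncertain.

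**Figure D4:**
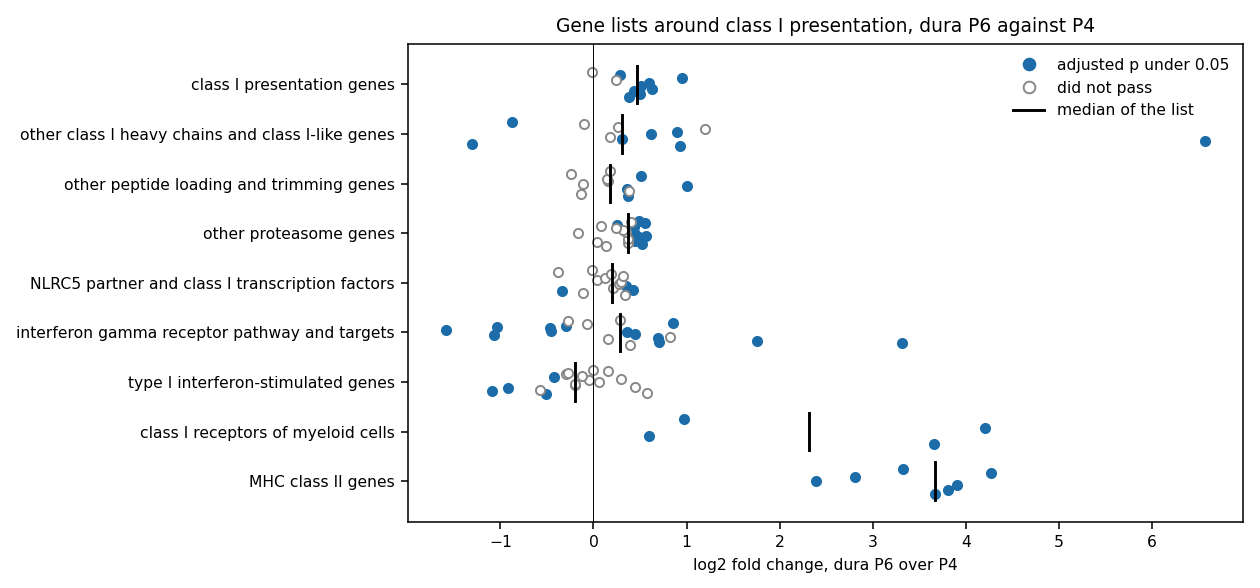
Log2 fold changes of dura P6 over P4 for the 10 class I presentation genes and 8 lists of related genes. Each point is 1 gene, filled where the adjusted p was under 0.05, and each black line is the median of its list. The class I genes have a median of 0.47 and the class II genes of 3.67, with the type I interferon-stimulated genes at -0.20.

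Genes most like Nlrc5 and H2-K1 were sought by Pearson correlation of log2(CPM + 1) over the 16 libraries, among 6546 genes of at least 20 CPM on average. The libraries fall into sets, so the coefficients are a description. Nearest to Nlrc5 were Ciita (0.94), H2-Eb1 (0.93), H2-Aa (0.93), H2-Ab1 (0.92) and Ccdc88b (0.92). Nearest to H2-K1 were Grk2 (0.96), H2-M2 (0.96), Abcg3 (0.91), Grb2 (0.90) and Nuak2 (0.90). Ciita had 192 to 232 CPM in P6, 121 to 165 CPM in P5 and 15.7 to 26.1 CPM in P4, and 147 to 186 CPM in 3/6/9, 97.9 to 111 CPM in 2/8 and 3.73 to 7.0 CPM in 1/7. Over those sets Nlrc5 averaged 28.8, 30.6 and 20.3 CPM in P6, P5 and P4, and 33.3, 32.4 and 13.1 CPM in 3/6/9, 2/8 and 1/7.

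**Figure D5:**
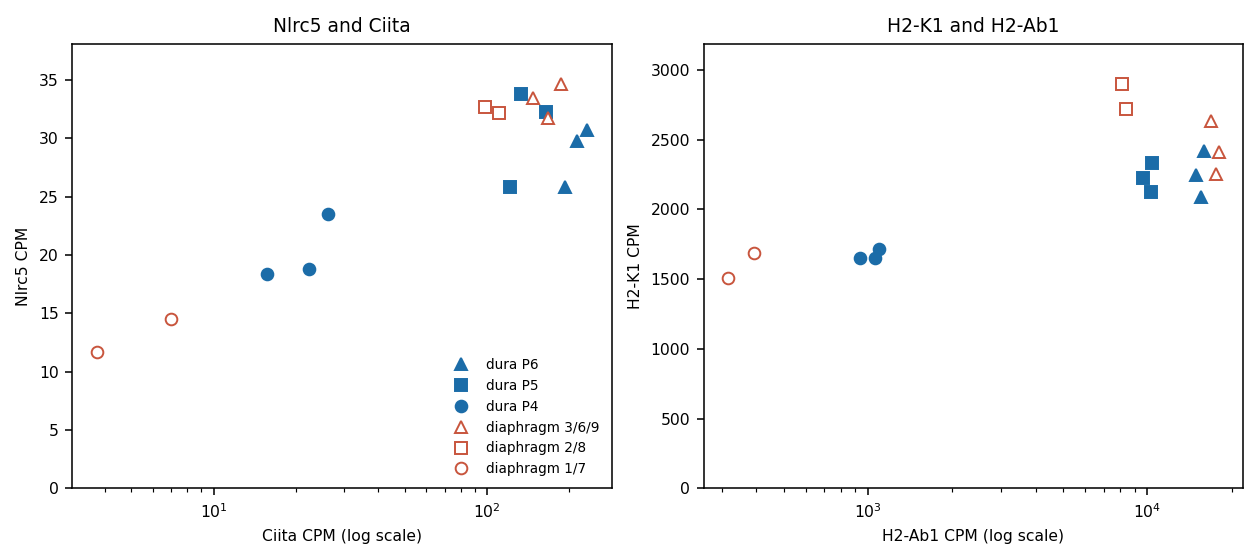
Nlrc5 against Ciita (left) and H2-K1 against H2-Ab1 (right), in CPM, with the horizontal axes on a log scale. Each point is 1 library, filled for dura and open for diaphragm. Dura P4 and diaphragm 1/7 lie at the lower left in both panels, and the other sets lie close together in Nlrc5 at 25.9 to 34.6 CPM.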

How the data were processed

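Bulk-sorted macrophage RNA was sequenced, without strand information, as single-end reads of 75 bases, per the labels' protocols. GRCm38, STAR 2.4.0j, featureCounts and DESeq2 1.20.0 appear in the submitters' processing notes. The authors deposited gene counts as whole numbers in 24 columns, read as raw counts although called normalised, since the values are whole and the totals differ. Columns of 6 diaphragm numbers matched in repeat runs (chi-square over degrees of freedom 1.008 to 1.169, at least 10.56 in other pairs) and were summed. The 2 columns of 1496 and 2115 counts were left out.

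Genes were filtered with filterByExpr, scaled with TMM and tested with edgeR 4.0.16 (R 4.3.3), quasi-likelihood, two-sided, Benjamini-Hochberg over all genes tested, threshold 0.05, after tests on simulated data. Dural comparisons used the 9 dural libraries. SE is the log2 fold change divided by the root of F. Alternatives included DESeq2 1.42.0 and limma-voom 3.58.1. Symbols were found for 40254 genes. Exonic lengths and overlaps came from GENCODE M21 on GRCm38. Named were the 10 members, up to 3 called genes of each list with the lowest adjusted p (otherwise the 2 most abundant), and 5 most correlated genes. The members and lists were chosen with earlier results of these data known.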

Additional observations from a re-analysis of the deposited data

How the results depend on the processing

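Dura P6 against P4 gave 8 members higher with RLE or upper-quartile factors, a CPM filter, DESeq2, limma-voom and class II genes left out of the scaling (an alternative chosen after seeing the data), 6 with library totals and 7 with no filter. With all 16 libraries in 1 fit, the diaphragm was taken as 1 group. The members higher were then 1 in P6 against P4, 0 in P5 against P4 and 0 in P6 against P5. All genes called were 1292, 3 and 173. In P5 against P4, library totals gave 3, and with no filter 1587 genes were called.

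With the dural number as a block (the replicate block), members higher were 9 in P6 against P4, 8 in P5 against P4 and 3 in P6 against P5, and 1576 genes were called in P5 against P4. The added genes in P5 against P4 were B2m, Psmb8 and Psmb9 (adjusted p = 0.0153, 0.0288 and 0.0427, edgeR). The labels do not say what the numbers share, and not every same-numbered pair deviated together, so the block was not used for the results reported. Over 9 pairs of the same number the correlation of deviations ran from -0.005 to 0.171. Of these, 4 pairs exceeded 0.1 (all 3 of number 3, at 0.118 to 0.161, and P4 with P5 of number 4). By a strict rule, 3 of 9 libraries correlated best with their own number in both other marks. P4 library 1 correlated most with P5 library 1 (0.081), but failed this rule in P6 (0.005 with library 1, 0.009 with library 4).

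Members lower in dura against diaphragm, 2 in the result reported, were 1 with upper-quartile factors, 1 with library totals, 1 with the number as a random term, 1 without P6, 5 without diaphragm 1 and 7, and 0 with no filter, near-empty columns kept, dural libraries summed per number, without P4, without P5 or without diaphragm 3, 6 and 9. All genes called were 1259 with dural libraries summed and 2143 without P5. Leaving out each library in turn gave 1 to 2 members lower in dura against diaphragm, 3 to 6 higher in P5 against P4 (544 to 1136 genes called) and 1 to 3 higher in P6 against P5 (1480 to 2503 genes called). The genes called in P5 against P4 were 557 without P4 library 3, 544 without P5 library 3 and 607 without P5 library 4, against 973, and in P6 against P5 1480 without P5 library 3, against 2299. In P6 against P4, Psmb9 passed without P5 library 1 (adjusted p = 0.0485, edgeR) and with the block (0.0226), and in P5 against P4 B2m and Psmb8 passed without P5 library 4 (0.0376 and 0.0264).

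Values that changed sign were small. In dura against diaphragm, H2-K1 was 0.044 with near-empty columns kept. B2m was -0.038 without P6 and -0.066 without 1 and 7. Tap1 was 0.037 with library totals, 0.08 without P4 and 0.165 without 3, 6 and 9. Psmb8 was 0.035 with upper-quartile factors, 0.114 with library totals, 0.004 with near-empty columns, 0.097 without P4, 0.19 without 3, 6 and 9, and -0.111 to 0.018 leaving out each library. Psmb9 was 0.068 with upper-quartile factors, 0.143 with library totals, 0.002 with no filter, 0.018 with limma-voom, 0.009 with class II genes left out of the scaling, 0.018 with the random term, 0.072 without P4, 0.043 without 3, 6 and 9, and -0.068 to 0.074 leaving out each library. Nlrc5 was 0.033 with upper-quartile factors, 0.123 with library totals, 0.085 with limma-voom, 0.085 with the random term, 0.123 without P4, 0.254 without 3, 6 and 9, and -0.155 to 0.03 leaving out each library. In P6 against P4, Tapbp was 0.001 with all 16 libraries and -0.048 to 0.042 leaving out each library. In P5 against P4, Tapbp was -0.109 with library totals and -0.011 to 0.073 leaving out each library. In P6 against P5, H2-K1 was -0.003 with no filter and -0.043 to 0.077 leaving out each library, Tapbp -0.071 to 0.01 and Psmb9 -0.092 to 0.067. None of these passed the test in the result reported, and the cause was not tested.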
